A study of Mus musculus with 12 samples.

Results

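The EGR, NR4A and Arc activity-response genes are 10 genes chosen by name, namely Egr1, Egr2, Egr3, Egr4, Nr4a1, Nr4a2, Nr4a3, Arc, Npas4 and Ier2, and all 10 were found among the 55401 genes listed for every sample. They were measured by RNA-seq in adult neural stem/progenitor cells (aNSPCs), which were taken from the forebrain of C57BL/6 mice aged 8 to 10 weeks and grown as dividing cells with EGF and FGF-2 (20 ng/mL each). The 4 groups were proliferating Ctrl, proliferating NAD+, differentiation Ctrl and differentiation NAD+, with 3 samples in each and 12 in all. Differentiation medium held 1 µM retinoic acid and 5 µM forskolin in the Ctrl and in the NAD+ samples alike. NAD+ (nicotinamide adenine dinucleotide, a redox cofactor of metabolism) was added at 1 mM. The study gives no exposure time for the RNA-seq samples, and its other assays of NAD+ ran for days. An early response and a later level can therefore not be told apart. The groups follow the sample titles, because the treatment field of the labels gives "untreated" for all 12. The study describes the replicates as biological, but neither it nor the labels say whether they came from separate mice or cultures. The p-values therefore measure only the spread between these samples, which may be technical. The 10 genes and the gene lists described later were chosen with earlier results of these data known. Their counts beside the shares of all genes are therefore descriptions and not tests of these lists.

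These genes are the classic early transcriptional read-out of growth factor, calcium and cAMP signalling, and in the brain they are used as markers of recently active neurons. Egr1 to Egr4 encode zinc finger transcription factors that bind the same GC-rich element, Nr4a1 to Nr4a3 encode orphan nuclear receptors, and Npas4 encodes a neuronal bHLH-PAS transcription factor that responds to calcium influx. Arc encodes an effector protein of synapses that promotes the internalization of AMPA receptors, and Ier2 encodes a small nuclear protein made early after growth factor stimulation. Their promoters typically use serum response factor at CArG boxes and CREB at cAMP response elements, and forskolin raises cAMP by activating adenylyl cyclase.

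The promoter sequences of 5 members are shown to let the EGR and NR4A families be set side by side, with Egr4 lower and Nr4a2 and Nr4a3 higher in the comparison of culture conditions described later. They are the part of the 250 bases before the RefSeq transcription start (GRCm38.p6, the mm10 assembly) that lies outside annotated exons, 5′ to 3′ on the gene's strand. Windows of 6 of the 10 members are reported. None is given for Egr1, Egr3, Arc and Ier2, so nothing is said of either motif in their promoters. The EGR family is therefore represented only by Egr2 and Egr4. Capitals mark TGACG, the core of a cAMP response element, on either strand (it then reads CGTCA), and in Egr2 also the CArG box. The shown windows are chr10:67537619-67537868 (+) for Egr2, chr6:85513590-85513839 (-) for Egr4, chr15:101266596-101266845 (+) for Nr4a1, chr2:57124004-57124253 (-) for Nr4a2 and chr4:48045055-48045152 (+) for Nr4a3.
Egr2: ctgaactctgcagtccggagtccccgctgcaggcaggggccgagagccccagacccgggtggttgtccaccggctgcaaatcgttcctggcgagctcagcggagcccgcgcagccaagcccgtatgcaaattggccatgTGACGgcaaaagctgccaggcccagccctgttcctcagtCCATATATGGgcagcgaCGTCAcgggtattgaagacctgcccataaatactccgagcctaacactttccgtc
Egr4: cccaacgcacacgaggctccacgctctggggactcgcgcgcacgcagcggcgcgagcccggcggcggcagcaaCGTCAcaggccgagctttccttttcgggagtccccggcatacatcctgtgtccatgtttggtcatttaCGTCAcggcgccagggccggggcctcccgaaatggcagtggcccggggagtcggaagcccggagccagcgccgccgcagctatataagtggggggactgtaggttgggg
Nr4a1: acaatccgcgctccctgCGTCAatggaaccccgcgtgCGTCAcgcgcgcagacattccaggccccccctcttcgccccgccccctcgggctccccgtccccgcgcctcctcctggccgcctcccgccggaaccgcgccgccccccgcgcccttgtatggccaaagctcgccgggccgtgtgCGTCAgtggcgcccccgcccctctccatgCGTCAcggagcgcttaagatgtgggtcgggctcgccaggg
Nr4a2: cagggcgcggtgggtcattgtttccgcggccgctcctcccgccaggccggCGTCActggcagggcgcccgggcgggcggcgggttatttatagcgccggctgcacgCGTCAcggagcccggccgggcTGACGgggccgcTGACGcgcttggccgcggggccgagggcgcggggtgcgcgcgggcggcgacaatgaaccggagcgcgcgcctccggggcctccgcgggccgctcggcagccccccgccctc
Nr4a3: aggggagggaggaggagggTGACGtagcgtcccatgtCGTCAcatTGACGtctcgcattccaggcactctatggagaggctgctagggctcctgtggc

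In the 250 bases before the start, TGACG occurred 4 times each in Nr4a1, Nr4a2 and Nr4a3 and 2 times each in Egr2, Egr4 and Npas4. Of 32851 RefSeq promoter windows of the same length, 17.8% held at least 1 copy and 3.9% held at least 2. The CArG box was searched only in its strict form, CC, then 6 bases that are each A or T, then GG. In this form it was found only in Egr2 among the 6 windows, and in 1.47% of all windows. Forms with 1 other base, such as CCTTGTATGG in Nr4a1 and CCATGTTTGG in Egr4, were not counted. For Nr4a3, the 98 bases farthest from the start are shown, which hold 3 of its 4 copies. None are shown for Npas4, because the rest of both windows lies in annotated exons. The RefSeq start used lay 152 bases from the principal annotated start for Nr4a3 and 345 for Npas4. These matches describe the letters only, and binding at them was not measured.

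FPKM (mapped fragments relative to transcript length and to the total mapped in a sample) is scaled to gene length, so levels can be set side by side between genes. The sum of FPKM over all genes lay between 308828 and 363330 per sample. Replicate 1 of the proliferating Ctrl group had the highest sum. Rounding to 0.01 leaves the number of reads behind a value unknown, so no counting error can be given. The label "aNSC" was checked against markers. All 6 neural stem cell markers and all 7 astrocyte markers had a mean of at least 1 FPKM in each group, and so had 4 of the 8 neuron markers, while Rbfox3, Snap25, Syt1 and Stmn2 lay under 1. Microglia, endothelium and pericyte markers summed to at most 0.44, 0.23 and 2.21 FPKM, and Cldn5 was listed at 0 in 3 of the 4 groups. The 8 oligodendrocyte lineage markers summed to 1265 to 1379 FPKM in proliferating Ctrl and 1013 to 1045 in proliferating NAD+, and to 452 to 464 and 341 to 375 under differentiation. The 7 astrocyte markers summed to 1321 to 1407 FPKM in differentiation Ctrl and to 1734 to 1860 in differentiation NAD+. Gfap (595 to 977 FPKM) and Slc1a3 (330 to 424) carried most of that sum, while the means of Aqp4, Aldh1l1 and Gja1 were lower with NAD+ (34.8 to 27.8, 93.5 to 61.3 and 174 to 127 FPKM). The 6 neural stem cell markers summed to 314 to 358 and 401 to 410 FPKM in the same groups. The part of these marker shifts in the results of the activity-response genes was not tested, and in bulk samples fewer cells of a type and less RNA per cell cannot be told apart.

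**Figure D1:**
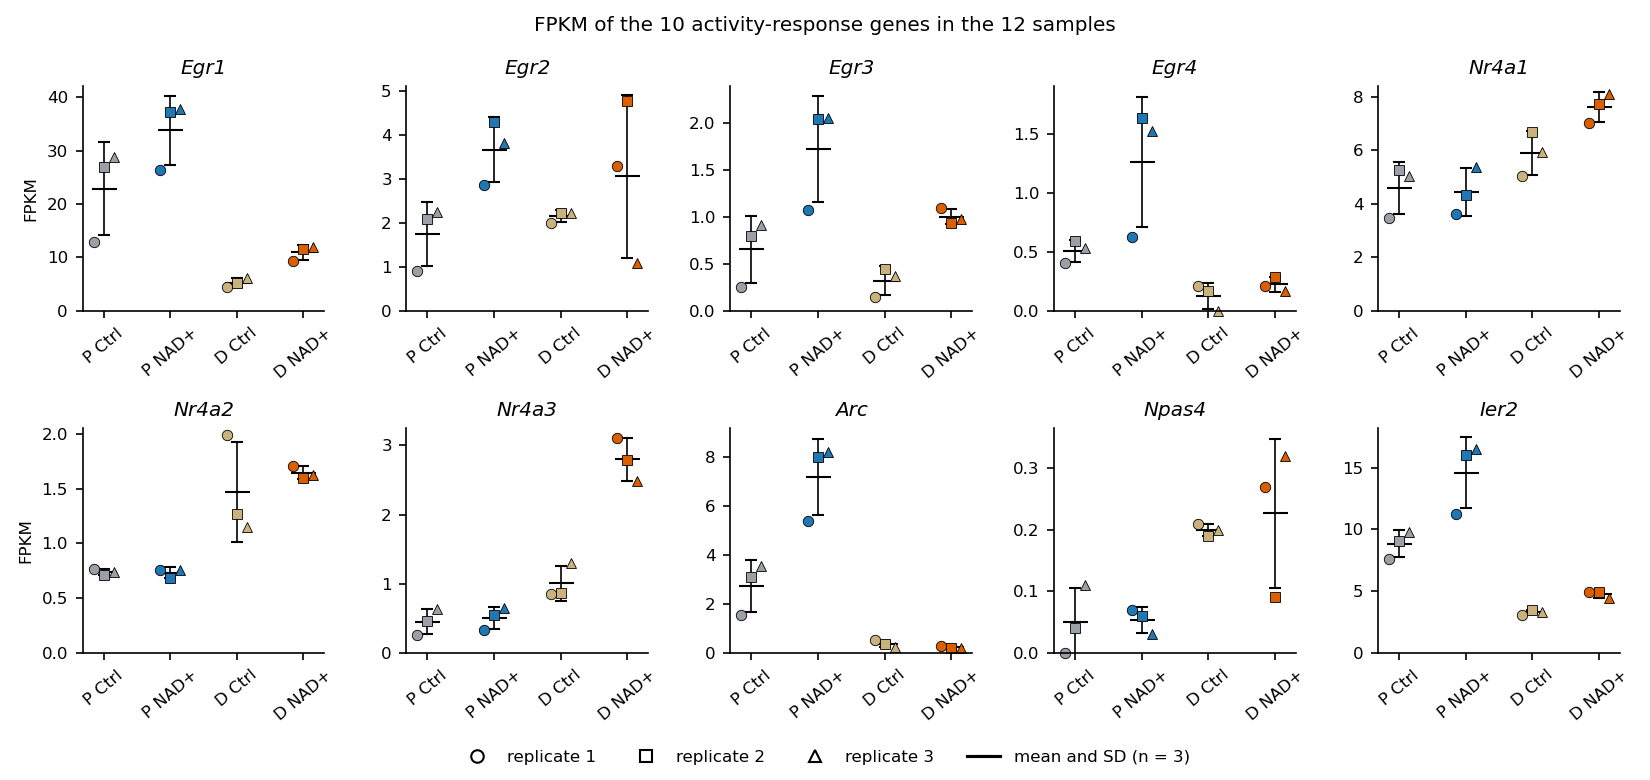
FPKM (vertical axis, starting at 0, scaled separately for each gene) of the 10 activity-response genes in proliferating (P) and differentiation (D) samples with and without NAD+, with a symbol for each replicate and the mean ± SD of 3 samples. Arc ran from 5.39 to 8.19 FPKM in proliferating NAD+ and stayed at or under 0.50 FPKM in all 6 differentiation samples, whereas Nr4a3 reached 2.49 to 3.11 FPKM only in differentiation NAD+.

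The first comparison asks what NAD+ did in proliferating aNSPCs. Arc, Egr2, Egr3, Egr4 and Ier2 were higher in all 3 NAD+ samples than in any Ctrl sample, by 1.65 to 2.64-fold in mean FPKM. The NR4A receptors differed by less than the spread within the groups. None of the 9 members tested had an adjusted p under 0.05 in limma, whereas 5 had an unadjusted p under 0.05. Over all 18597 genes tested, 0.0484% were higher at the adjusted threshold and 9.35% at the unadjusted threshold. Groups that did not overlap, with NAD+ higher, were found for 5 members and for 15.5% of all genes tested. The median log2 fold change was 0.71 over the 9 members and 0.07 over all genes tested.

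Arc (ENSMUSG00000022602, chromosome 15, 74669083 to 74672570 of mm10, minus strand) showed the largest log2 fold change of the members in proliferating cells. Its FPKM was 1.53, 3.09 and 3.56 in the Ctrl samples and 5.39, 7.98 and 8.19 in the NAD+ samples. Every NAD+ sample lay above every Ctrl sample, so the groups did not overlap. The means were 2.73 ± 1.06 (SD, n = 3) and 7.19 ± 1.56 (SD, n = 3), a log2 fold change of 1.42 (SE 0.33, limma adjusted p = 0.141). An exact permutation test (two-sided) on FPKM gave p = 0.1, the smallest that 3 samples against 3 allow.

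Egr3 (ENSMUSG00000033730, chromosome 14, 70077203 to 70082614, plus strand) had 0.25, 0.80 and 0.91 FPKM in Ctrl and 1.07, 2.04 and 2.06 in NAD+. Egr2 (ENSMUSG00000037868, chromosome 10, 67535475 to 67542188, plus strand), which also has a role in peripheral myelination, had 0.90, 2.09 and 2.25 FPKM in Ctrl and 2.86, 4.31 and 3.83 in NAD+. Egr4 (ENSMUSG00000071341, chromosome 6, 85511121 to 85513589, minus strand) had 0.41, 0.59 and 0.53 FPKM in Ctrl and 0.63, 1.64 and 1.53 in NAD+. In each of these 3 genes every NAD+ sample lay above every Ctrl sample, for Egr4 with replicate 1 of NAD+ close to the highest Ctrl sample. The log2 fold changes were 1.36 (SE 0.46) for Egr3, 1.11 (SE 0.35) for Egr2 and 1.07 (SE 0.36) for Egr4. Their adjusted p-values were 0.252, 0.228 and 0.252.

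Ier2 (ENSMUSG00000053560, chromosome 8, 84661331 to 84662852, minus strand) had 7.63, 9.04 and 9.81 FPKM in Ctrl and 11.26, 16.03 and 16.49 in NAD+. The groups did not overlap, with a log2 fold change of 0.71 (SE 0.17, limma adjusted p = 0.158). Egr1 (ENSMUSG00000038418, chromosome 18, 34859823 to 34864984, plus strand), the member with the highest mean in every group but differentiation Ctrl, had 12.86, 26.92 and 28.88 FPKM in Ctrl and 26.37, 37.31 and 37.87 in NAD+. Replicate 1 of the NAD+ group fell within the range of the Ctrl group, so the groups overlapped. The log2 fold change of Egr1 was 0.63 (SE 0.32, limma adjusted p = 0.394).

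By the rule used for differentially expressed genes (DEGs; unadjusted p under 0.05 and more than 2-fold between mean FPKM values), Arc, Egr2, Egr3 and Egr4 were higher DEGs, against 1.6% of all genes tested. These counts rested on single samples. Leaving out replicate 2 of the NAD+ group left 1 DEG (Arc), leaving out its replicate 3 left 2 (Arc and Egr2), and leaving out replicate 1 of the Ctrl group also left 2 (Arc and Egr3). The share of all genes that met the rule with a sample left out was not counted. The unadjusted p of Arc and Ier2 stayed under 0.05 in all 15 alternative settings. The adjusted p of Arc ran from 0.0518 to 0.406 over these settings.

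For the orphan receptors, the proliferating groups overlapped. Nr4a1 (ENSMUSG00000023034, chromosome 15, 101254269 to 101274795, plus strand) had 3.46, 5.26 and 5.02 FPKM in Ctrl and 3.62, 4.34 and 5.39 in NAD+. Nr4a2 (ENSMUSG00000026826, chromosome 2, 57106830 to 57124003, minus strand), which is required in midbrain dopamine neurons, had 0.77, 0.71 and 0.74 FPKM in Ctrl and 0.76, 0.68 and 0.76 in NAD+. Nr4a3 (ENSMUSG00000028341, chromosome 4, 48045153 to 48086447, plus strand) had 0.26, 0.46 and 0.63 FPKM in Ctrl and 0.33, 0.54 and 0.64 in NAD+. The values of Nr4a2 were the most even of the 3 receptors. The 95% confidence intervals of the log2 fold change ran from -0.54 to 0.47 for Nr4a1, from -0.43 to 0.40 for Nr4a2 and from -0.68 to 0.99 for Nr4a3, so for Nr4a3 neither a small fall nor an increase of almost 2-fold lay outside the interval. Npas4 (ENSMUSG00000045903, chromosome 19, 4984355 to 4990316, minus strand) lay between 0 and 0.11 FPKM in these 6 samples, under the filter of 0.1 FPKM on the mean, and was not tested.

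**Figure D2:**
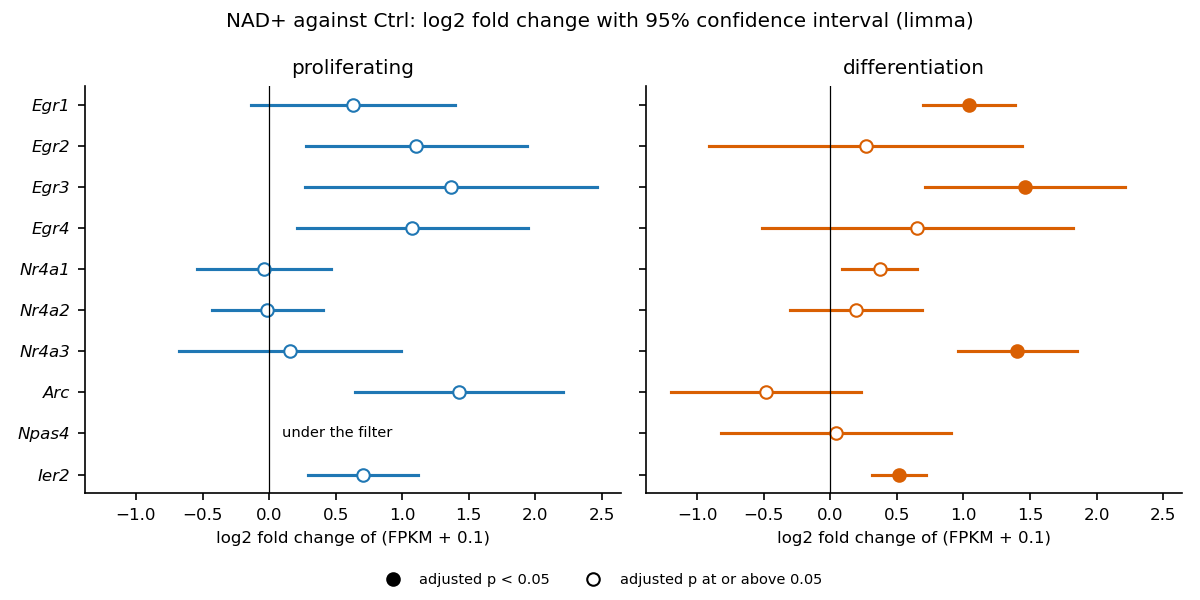
Log2 fold change of FPKM + 0.1 (horizontal axis) between NAD+ and Ctrl for each gene, with the 95% confidence interval from limma as a bar, under proliferating (left) and differentiation conditions (right); filled points have an adjusted p under 0.05. Filled points appear only on the right, for Egr1, Egr3, Nr4a3 and Ier2, and Npas4 was under the filter on the left.

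Replicate 1 was the lowest sample for 9 of the 10 genes in proliferating Ctrl and for 8 of 10 in proliferating NAD+. Nr4a2 was the exception in both groups, and Npas4 in the NAD+ group. Over all genes tested, replicate 1 was the lowest for 46.2% in proliferating Ctrl and for 44.7% in proliferating NAD+. Relative to the mean of its group, replicate 1 of proliferating Ctrl stood at 0.383 for Egr3, 0.515 for Egr2, 0.561 for Arc and 0.562 for Egr1. Replicate 1 of proliferating NAD+ stood at 0.497 for Egr4 and 0.621 for Egr3. Without replicate 1 of both groups, 6 members had an unadjusted p under 0.05, Egr1 now among them (log2 fold change 0.43). That alternative was chosen after the values had been seen. The share of all genes at the unadjusted threshold was not counted in it. At an adjusted p under 0.05 in limma, it called 0 genes higher and 1 lower among the 18556 tested.

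**Figure D3:**
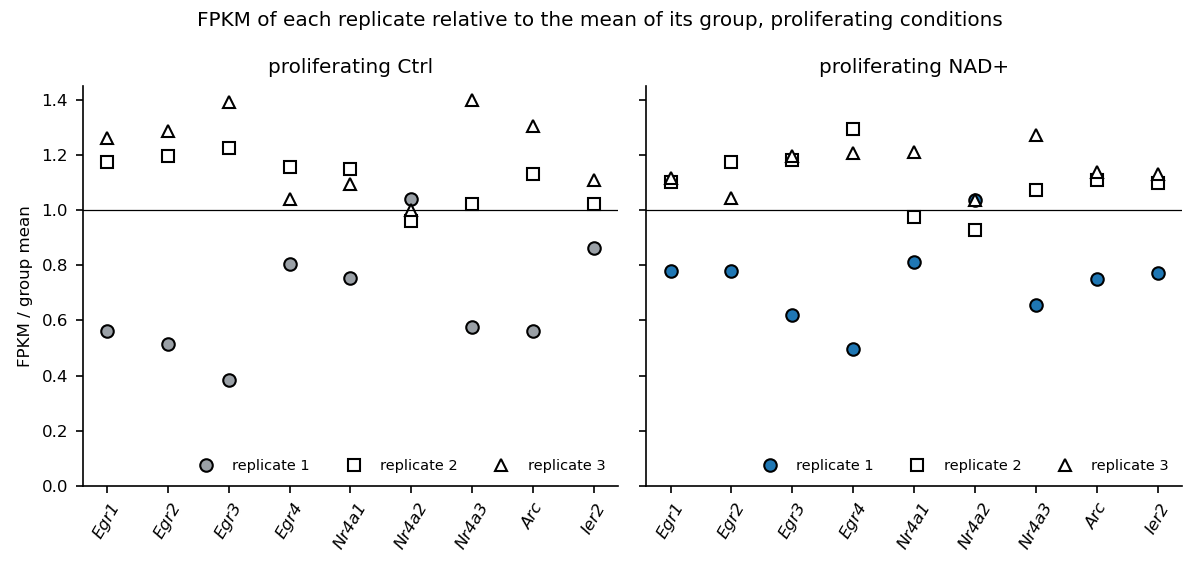
FPKM of each replicate divided by the mean of its group (vertical axis, the line at 1 is the group mean) for 9 activity-response genes in proliferating Ctrl (left) and proliferating NAD+ (right). Replicate 1 (filled) is the lowest of its group for each gene but Nr4a2.

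The second comparison asks what NAD+ did under differentiation conditions. Here Egr1, Egr3, Nr4a3 and Ier2 rose with NAD+, by 1.44 to 3.14-fold in mean FPKM, and Arc did not. These were 4 of 10 members with an adjusted p under 0.05 and a higher level, against 2.27% of the 19611 genes tested. An unadjusted p under 0.05 with a higher level was found for 5 members and for 7.5% of all genes, and groups that did not overlap for 5 members and 9.68% of all genes. Egr1, Egr3 and Nr4a3 were also DEGs, a rule that 1.36% of all genes met in that direction. The median log2 fold change was 0.44 over the 10 members and -0.08 over all genes tested.

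Nr4a3 had 0.85, 0.87 and 1.30 FPKM in Ctrl and 3.11, 2.79 and 2.49 in NAD+. All NAD+ samples lay above all Ctrl samples. The means were 1.01 ± 0.254 (SD, n = 3) and 2.80 ± 0.310 (SD, n = 3), a log2 fold change of 1.41 (SE 0.19, limma adjusted p = 0.0124). Without replicate 1 of the Ctrl group the adjusted p was 0.0513, with a log2 fold change of 1.31.

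Egr1 had 4.48, 5.13 and 6.22 FPKM in Ctrl and 9.39, 11.51 and 11.86 in NAD+. The groups did not overlap, and the ratio of same-numbered samples lay between 1.91 and 2.24. Its log2 fold change was 1.04 (SE 0.14, limma adjusted p = 0.0138). The adjusted p was 0.0549 without replicate 2 of the Ctrl group and 0.0507 without replicate 3 of the NAD+ group.

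Egr3 had 0.15, 0.44 and 0.37 FPKM in Ctrl and 1.09, 0.94 and 0.98 in NAD+. All NAD+ samples were higher and closely spaced, with a log2 fold change of 1.47 (SE 0.31, limma adjusted p = 0.0442). This call held in 3 of 14 alternative settings, whose adjusted p ran from 0.0237 to 0.148, and it was lost without any 1 of the 6 samples. Ier2 had 3.09, 3.45 and 3.33 FPKM in Ctrl and 4.89, 4.94 and 4.42 in NAD+. The groups did not overlap, and the log2 fold change was 0.52 (SE 0.09, limma adjusted p = 0.0225). Leaving out replicate 3 of the NAD+ group kept this call, and leaving out any other single sample gave an adjusted p between 0.0603 and 0.0786. With 1 sample left out, 1 or 2 of the 4 calls remained. Over all genes tested, the higher calls went from 445 to between 137 and 259 in these settings. With replicate 1 of both groups left out 0 of the 4 calls remained, while only 2 of all genes tested passed the threshold.

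Nr4a1 had 5.05, 6.68 and 5.95 FPKM in Ctrl and 7.01, 7.73 and 8.10 in NAD+. The groups did not overlap, but the log2 fold change of 0.37 (SE 0.12) did not pass adjustment in limma (adjusted p = 0.118). Nr4a2 had 1.99, 1.27 and 1.15 FPKM in Ctrl and 1.71, 1.60 and 1.63 in NAD+. Its groups overlapped, with 1 Ctrl sample above all NAD+ samples and the other two below them.

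The remaining genes were low or scattered under differentiation conditions. Egr2 had 2.00, 2.23 and 2.23 FPKM in Ctrl and 3.30, 4.79 and 1.09 in NAD+, so that 2 NAD+ samples lay above and 1 below the Ctrl samples. Its log2 fold change of 0.27 (SE 0.49, limma adjusted p = 0.786) became 0.86 without replicate 3 of the NAD+ group. Egr4 had 0.21, 0.17 and 0 FPKM in Ctrl and 0.21, 0.29 and 0.17 in NAD+. These values overlapped (log2 fold change 0.65, SE 0.49, limma adjusted p = 0.469). Arc had 0.50, 0.34 and 0.24 FPKM in Ctrl and 0.29, 0.18 and 0.20 in NAD+. The groups overlapped, with a log2 fold change of -0.48 (SE 0.30, limma adjusted p = 0.38). Npas4 had 0.21, 0.19 and 0.20 FPKM in Ctrl and 0.27, 0.09 and 0.32 in NAD+, and its groups overlapped as well (log2 fold change 0.04, SE 0.36, limma adjusted p = 0.961).

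Whether the NAD+ effect differed between the conditions was tested as a contrast in a fit of all 12 samples, written as the effect under differentiation minus the effect in proliferating cells. No member passed an adjusted p of 0.05 in limma, which 0.467% of 19498 genes did. An unadjusted p under 0.05 was found for 2 members, Arc and Nr4a3, and for 15.5% of all genes. The median of this difference over all genes was -0.16 with the values as deposited and -0.02 after median-ratio scaling. Arc had a difference of -1.91 (SE 0.45, limma adjusted p = 0.0947), from 1.42 in proliferating cells and -0.48 under differentiation. Nr4a3 had a difference of 1.25 (SE 0.41, limma adjusted p = 0.198), from 0.16 and 1.41. Both kept their sign and an unadjusted p under 0.05 in all 21 alternative settings, with adjusted p-values from 0.0583 to 0.221 for Arc and from 0.0579 to 0.342 for Nr4a3. For Egr3, whose log2 fold changes were 1.36 and 1.47, the difference of 0.10 had a 95% confidence interval from -1.22 to 1.43, and with 1 added in place of 0.1 it was -0.11. The same fit gave Egr1 a difference of 0.41, with an interval from -0.44 to 1.26.

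The third comparison sets differentiation against proliferating samples. Among the EGR genes, Egr1 and Egr4 were lower under differentiation in Ctrl and in NAD+, and so were Arc and Ier2, whereas Nr4a2 and Nr4a3 were higher. FPKM is scaled within each sample, but the sources used here do not state whether the tables of both conditions were scaled together. Retinoic acid, forskolin and the change of cell state came together and cannot be told apart. The study does not say whether EGF and FGF-2 stayed in differentiation medium, so a difference in them cannot be set apart either. In Ctrl, 4 of 10 members were lower and 3 higher at an adjusted p under 0.05, against 31.6% and 25.0% of 19498 genes. In NAD+, 4 were lower and 4 higher, against 37.6% and 20.8%. The median log2 fold change over all genes was -0.06 in Ctrl and -0.20 in NAD+, and 0.05 in both after median-ratio scaling. The median over the 10 members was -0.20 in Ctrl and -0.57 in NAD+. The comparison in Ctrl shares its samples with the NAD+ comparisons above.

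Arc had the largest difference between the conditions. Its mean was 2.73 FPKM in proliferating Ctrl and 0.360 ± 0.131 (SD, n = 3) in differentiation Ctrl, a log2 fold change of -2.58 (SE 0.32, limma adjusted p = 4.37e-05). In NAD+ its mean went from 7.19 to 0.223 ± 0.0586 FPKM (SD, n = 3), a log2 fold change of -4.48 (SE 0.32, limma adjusted p = 5.53e-07). The ratio of the means in NAD+ was 0.0311. Egr1 had log2 fold changes of -2.02 in Ctrl (limma adjusted p = 8.37e-05) and -1.61 in NAD+ (limma adjusted p = 0.000396). Ier2 had -1.39 and -1.58, and Egr4 had -1.58 and -2.00. For Arc, Egr1, Ier2 and Egr4 the proliferating and differentiation samples did not overlap in either group. Of all 19498 genes tested, 6607 in Ctrl and 8124 in NAD+ were likewise lower without overlap. With 0.01 added in place of 0.1, the adjusted p of Egr4 in NAD+ was 0.0557.

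Nr4a2 and Nr4a3 were higher under differentiation in both groups, and Nr4a1 passed the adjusted threshold in the NAD+ group. Nr4a3 went from a mean of 0.450 to 1.01 FPKM in Ctrl (log2 fold change 1.04, SE 0.29, limma adjusted p = 0.00941) and from 0.503 to 2.80 in NAD+ (log2 fold change 2.29, SE 0.29, limma adjusted p = 3.98e-05). Nr4a2 had log2 fold changes of 0.87 in Ctrl and 1.07 in NAD+ (limma adjusted p = 0.002 and 0.000432). Its proliferating and differentiation samples did not overlap in either group. Of all 19498 genes tested, 5431 in Ctrl and 4798 in NAD+ were likewise higher without overlap. Nr4a1 had 0.78 in NAD+ (limma adjusted p = 0.00335) and 0.37 in Ctrl (limma adjusted p = 0.104), where median-ratio scaling gave an adjusted p of 0.0254. The contrast of both, 0.41, had an adjusted p of 0.464 in limma. Each of these 3 genes holds 4 copies of TGACG in the 250 bases before its start, a relation to their levels that was not tested. Npas4 went from 0.050 to 0.200 FPKM in Ctrl and from 0.0533 to 0.227 in NAD+, with limma adjusted p-values of 0.0248 and 0.0294. Npas4 lost the call, with adjusted p-values from 0.0511 to 0.112, without any 1 of 5 of the 6 samples in Ctrl and of 4 of the 6 in NAD+. Egr2 and Egr3 were not called in either group. Without replicate 1 of proliferating Ctrl, Egr3 was called lower in Ctrl (log2 fold change -1.26, limma adjusted p = 0.0125).

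**Figure D4:**
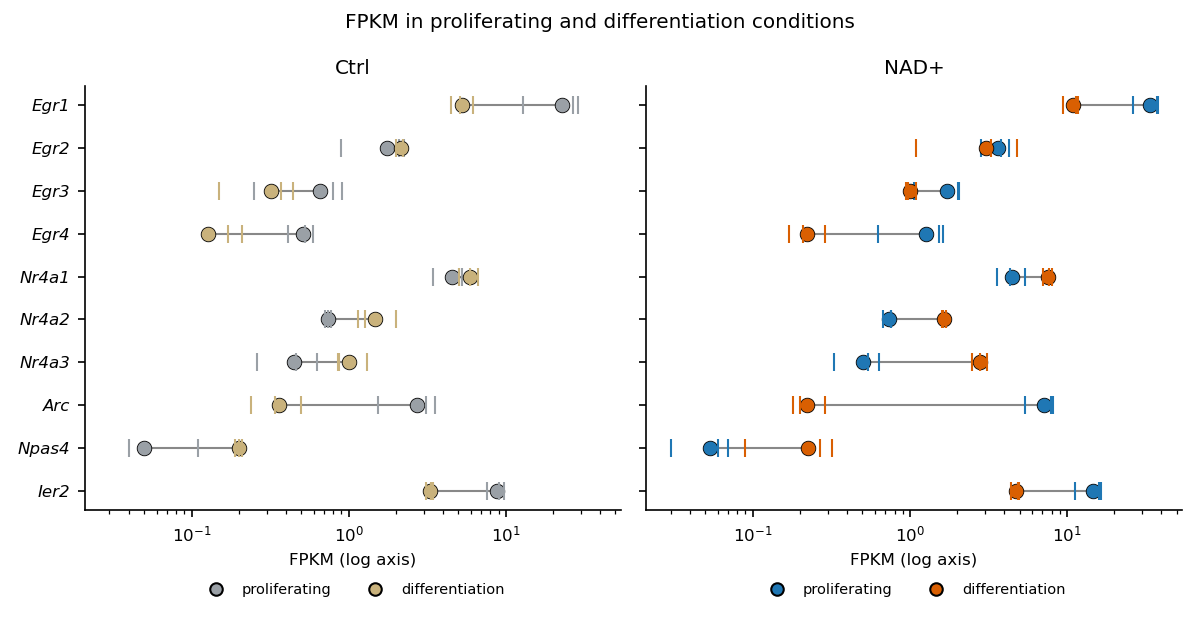
FPKM (horizontal log axis) of each gene in proliferating and differentiation samples, in Ctrl (left) and NAD+ (right); circles are means of 3 samples, ticks are single samples, a line joins both means, and samples at 0 (1 Egr4 and 1 Npas4 value in Ctrl) have no tick. Arc, Egr1, Egr4 and Ier2 lie to the left under differentiation, and Nr4a2, Nr4a3 and Npas4 to the right.

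The order of the groups therefore differed between genes. Arc ran from proliferating NAD+ (7.19 FPKM) and proliferating Ctrl (2.73) down to differentiation Ctrl (0.360) and differentiation NAD+ (0.223), of which the last 2 groups overlapped. Egr1 ran from proliferating NAD+ (33.9 FPKM) and proliferating Ctrl (22.9), which overlapped, to differentiation NAD+ (10.9) and differentiation Ctrl (5.28). Nr4a3 ran the other way, from differentiation NAD+ (2.80 FPKM) and differentiation Ctrl (1.01) to the 2 proliferating groups (0.503 and 0.450), which overlapped. In differentiation NAD+ the highest members were Egr1, Nr4a1 (7.61 FPKM) and Ier2 (4.75), and in proliferating NAD+ they were Egr1, Ier2 (14.6) and Arc.

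Other genes of the same response were looked at as lists, also chosen with earlier results of these data known. The AP-1 family, whose Fos and Jun proteins pair into an early transcription factor, had 3 of 5 tested members with an unadjusted p under 0.05 in proliferating cells (Junb, Jun and Fosl2, all higher and none after adjustment) and 3 of 6 with a higher level and an adjusted p under 0.05 under differentiation (Junb, Fos and Fosl2). Over all genes tested, 9.35% in proliferating cells and 2.27% under differentiation were higher at the same thresholds. Junb went from 10.9 ± 0.200 (SD, n = 3) to 32.0 ± 2.34 FPKM (SD, n = 3) under differentiation. The median log2 fold change of the family was 0.28 in proliferating cells and 0.41 under differentiation.

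Of 40 other activity-response genes, 37 were tested in proliferating cells. None had an adjusted p under 0.05 in limma, and 5 had a higher and 1 a lower level at an unadjusted p under 0.05, against 9.35% and 6.05% of all genes tested. The smallest p-values belonged to the ERK phosphatase genes Dusp5 (log2 fold change 0.93, limma adjusted p = 0.0573) and Dusp4 (1.22), the matricellular gene Ccn1 (-0.73), the neuropeptide precursor gene Vgf (2.03) and Zfp36 (0.55), which encodes a protein that destabilizes mRNA. Under differentiation, 6 of the 38 tested rose and 1 fell at an adjusted p under 0.05, against 2.27% and 4.65% of all genes tested. Vgf went from 0.337 to 1.05 FPKM (log2 fold change 1.39, limma adjusted p = 0.0126) and Ier3 from 8.12 to 17.8 FPKM (1.11, limma adjusted p = 0.0202). Klf4 and Dusp1, a zinc finger factor and a MAP kinase phosphatase, rose by 0.80 and 1.10 on the log2 scale. Sgk1, a serum- and glucocorticoid-regulated kinase, fell by 0.91 on the log2 scale. The median log2 fold change of this list was 0.06 in proliferating cells and 0.20 under differentiation.

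The 34 regulators upstream of these genes (CREB, SRF, MEF2 and ERK pathway genes) and EGR partners made the last list. In proliferating cells 0 of 34 had an adjusted p under 0.05 in limma, and 5 had an unadjusted one, all higher (Elk4, Nab1, Srf, Hdac5 and Elk1, with log2 fold changes from 0.24 to 0.44), against 9.35% of all genes tested. Under differentiation, 2 of 33 rose and 3 fell at an adjusted p under 0.05, against 2.27% and 4.65% of all genes tested. Nab2, a corepressor that binds EGR proteins and is itself an EGR target, rose from 5.38 to 8.22 FPKM (log2 fold change 0.60, SE 0.09, limma adjusted p = 0.0188). Hdac5, a class IIa histone deacetylase that represses MEF2 factors, rose by 0.32 on the log2 scale. Map2k2, Mef2a and Prkacb, encoding an ERK kinase, a MEF2 factor and a catalytic subunit of protein kinase A, fell by 0.31, 0.32 and 0.31 on the log2 scale. The median of the list was 0.18 in proliferating cells and -0.09 under differentiation.

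A mean profile of the 9 members above the filter in both conditions was formed from their z-scored log2 values over the 12 samples. It was lowest in replicate 1 of proliferating Ctrl (-0.74) and highest in replicate 3 of proliferating NAD+ (0.75). Of 11644 other genes with a mean of at least 1 FPKM in both conditions, the 8 most like it were Lrrc8c (Pearson r = 0.93), Synj2bp, Klhl21, Man1a2, Msrb3, Cavin1, Zbtb1 and Dpy19l1 (0.90). These points share the libraries and their FPKM scaling, and the coefficients are descriptions over 12 samples.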

How the data were processed

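RNA-seq of 12 aNSPC samples was used. The authors mapped reads to mm10 with Hisat2, kept unique reads, counted them with FeatureCounts and deposited FPKM per sample, in a table for each condition; the program behind the FPKM values is not given in the sources used here. The deposited fold change (ratio), its log2 value and the p-values and q-values of the authors' own comparison, per the file headers, were not used. Here 0.1 was added, log2 taken and a minimum mean of 0.1 FPKM set. Each NAD+ comparison was fitted on its 6 samples, and the others on all 12, with limma 3.58.1 in R 4.3.3 (trended variance, two-sided, Benjamini-Hochberg adjustment over all genes tested). Log2 fold changes are on the log2(FPKM + 0.1) scale, which understates the change of low genes. For DEGs, the ratio of mean FPKM used 0.0001 in place of 0. Genes were matched by Ensembl ID to GENCODE M21, where no member shares exon bases with another gene. Replicate numbers come from the titles. Same-numbered samples were checked for joint deviations from their group means. All members were named, with the 5 smallest p-values of each other list and the 8 genes most like the members. The members and lists were chosen with earlier results of these data known. Alternatives were 1 or 0.01 added, no filter or a minimum of 1 FPKM, median-ratio or quantile scaling, a replicate block, variance without a trend and leaving samples out. The code was tested on simulated data with normally distributed noise. Of 200 genes changed 3-fold, 80.5% were recovered in the proliferating comparison (18233 genes) and 88.5% in the differentiation comparison (19205 genes). In the contrast of both (19067 genes) 86% were recovered. The changed genes were drawn from those with a mean log2(FPKM + 0.1) above 0. Recovery of lower genes, such as Egr4 and Npas4, was not tested. Tables used pandas 2.3.3 under Python 3.11.15, permutation tests scipy 1.17.1, and figures matplotlib 3.10.9.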

Additional observations from a re-analysis of the deposited data

Results flagged for a closer look

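The NAD+ effect on Arc differed between the conditions by -1.91 on the log2 scale (differentiation minus proliferating, SE 0.45, limma), and that on Nr4a3 by 1.25 (SE 0.41, limma). The unadjusted p of this contrast marked both, and neither passed adjustment over all genes (adjusted p = 0.0947 and 0.198). These 2 of 10 members stand beside 15.5% of all genes at the same unadjusted threshold. Arc was higher in 3 of 3 proliferating NAD+ samples than in any Ctrl sample, and Nr4a3 in 3 of 3 differentiation NAD+ samples, as were 15.5% and 9.68% of all genes tested in these comparisons.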

How the results depend on the processing

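Scaling, the value added and the filter kept 3 or 4 of the 4 calls under differentiation, and no setting gave a proliferating call at an adjusted p under 0.05. Leaving out samples moved the counts. Under differentiation they went from 4 calls to between 0 and 2. Over all genes tested, the higher calls there went from 445 to between 2 and 259. In proliferating cells the DEGs went from 4 to between 1 and 4 and the unadjusted calls from 5 to between 2 and 6. The cause was not tested, beyond the smaller number of samples. The replicate block left 1 call under differentiation (Egr1), with limma adjusted p-values of 0.0503 for Nr4a3, 0.0604 for Ier2 and 0.0926 for Egr3. Over all genes tested, the block left 275 higher calls there. The same number does not establish a pairing: deviations from the group means correlated between same-numbered samples at 0.0215 to 0.111 in proliferating cells and 0.0257 to 0.0432 under differentiation, and in proliferating cells Ctrl replicate 3 correlated best with NAD+ replicate 2 (0.0734). With the block the proliferating comparison had 0 adjusted calls over all genes. Signs turned only for values within their error. Without single samples the log2 fold change ran from -0.22 to 0.10 for Nr4a1, from -0.038 to 0.035 for Nr4a2 and from -0.12 to 0.39 for Nr4a3 in proliferating cells, and from -0.16 to 0.86 for Egr2 and from -0.18 to 0.39 for Npas4 under differentiation. The contrast of the NAD+ effects ran from -0.23 to 0.59 for Egr3 and from -0.32 to 0.31 for Npas4, and differentiation against proliferating for Egr2 from -0.011 to 0.60 in Ctrl and from -0.89 to 0.13 in NAD+. In that contrast, 1 added gave -0.11 for Egr3 and 0.021 for Npas4, 0.01 added gave 0.44 for Egr4, median-ratio scaling gave 0.028 for Npas4 and quantile scaling gave 0.021 for Ier2. Without replicate 1 of every group it was -0.10 for Egr3 and 0.19 for Npas4, and the effect on Npas4 under differentiation was -0.062. Of the single-gene values, 826 kept direction and side of the threshold, 39 lost and 7 gained the call and 27 changed sign. Depth is unknown, which limits statements on genes near 0 such as Npas4 and Egr4.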
